A study of Mus musculus with 9 samples.

Results

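The genes followed here mark the macrophages of the developing olfactory bulb. C1qa, C1qb, C1qc, Csf1r, Cx3cr1, Aif1, Tyrobp and Trem2 (8 genes) are grouped here as genes of microglia of the brain tissue. Mrc1 and Lyve1 (2 genes) are grouped as genes of macrophages of the brain's borders. The arrays measured whole tissue, so they do not show which macrophages gave the RNA of the 8 microglia genes. Probe sets were taken where one of these symbols was the only gene named for them, which gave 17 of 34958 probe sets and 10 of 18194 genes. The bulbs came from CD1 mice, 1 animal and 1 Affymetrix array for each day from E11 to E18 and for birth (P0), dissected acutely, with RNA amplified in 2 rounds. No age had a replicate, so the error of a trend is the scatter of the 9 animals around it. No gene was altered and no agent given, per the labels.

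Microglia are the resident macrophages of brain tissue. They descend from yolk sac precursors that enter the neural tissue before birth, and they depend on signalling through the receptor encoded by Csf1r. Border macrophages share this yolk sac origin, sit in the meninges and around vessels, and are told from microglia by the mannose receptor Mrc1 and the hyaluronan receptor Lyve1. In early postnatal brain, microglia are known for clearing dying cells and for pruning synapses with the help of complement.

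Promoter sequences from the reference table are shown first. The transcription factor PU.1 governs macrophage genes, and its binding site centres on a purine-rich core. RefSeq promoters (GRCm38.p6) were used for 6 of the 10 genes, namely C1qb, C1qc, Cx3cr1, Mrc1, Aif1 and Trem2. No entry was used for C1qa, Tyrobp and Lyve1. Csf1r was left out by choice, so its promoter was not searched and is not in the counts of these genes. The letters GAGGAA were searched on both strands in the 250 bases before each start. They were found in 5 of the 6, the exception being Cx3cr1, and in 23.3% of the 32851 promoters of the table. A match describes letters and is not a binding site. C1qb and C1qc are printed because they lie side by side with C1qa on chromosome 4, with 0 other genes of the table between them, and rose together. Mrc1 is printed as the border macrophage gene, with 3 matches. Matches on either strand are in capitals, 5′ to 3′ on the strand of the gene.
C1qb, chr4:136886201-136886450, minus strand: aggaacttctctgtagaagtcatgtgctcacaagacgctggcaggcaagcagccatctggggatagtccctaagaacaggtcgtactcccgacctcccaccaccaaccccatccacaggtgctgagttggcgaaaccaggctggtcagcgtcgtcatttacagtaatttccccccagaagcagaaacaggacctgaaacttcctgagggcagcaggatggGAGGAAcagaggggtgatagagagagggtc
C1qc, chr4:136892915-136893164, minus strand: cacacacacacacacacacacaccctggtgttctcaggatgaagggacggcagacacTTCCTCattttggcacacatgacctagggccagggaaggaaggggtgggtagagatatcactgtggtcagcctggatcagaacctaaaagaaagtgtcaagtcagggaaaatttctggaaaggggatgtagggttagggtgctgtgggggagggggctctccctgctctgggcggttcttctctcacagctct
Mrc1, chr2:14229164-14229413, plus strand: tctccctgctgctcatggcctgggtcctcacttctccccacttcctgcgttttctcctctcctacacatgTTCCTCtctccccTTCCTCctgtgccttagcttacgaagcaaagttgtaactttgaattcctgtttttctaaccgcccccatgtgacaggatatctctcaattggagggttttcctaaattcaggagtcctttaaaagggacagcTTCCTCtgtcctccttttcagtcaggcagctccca
Counted back from the start, the match began at -30 in C1qb, at -193 in C1qc, and at -180, -167 and -35 in Mrc1.

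General measures of the arrays moved with age. Array medians on the log2 scale lay between 4.08 and 4.17 from E11 to E14 and between 4.20 and 4.23 from E15 on. The 3′ minus 5′ difference of actin, which tracks RNA quality, lay between 1.48 and 1.68 from E11 to E14 and between 1.71 and 1.90 from E15 on. Their part in the rise of the macrophage genes was not tested beyond the scaling alternatives, under which all 8 tested genes rose. Xist read above 13 at E11, E12, E15 and P0 and below 3 at the other ages, and the sexes were thus not balanced over age. Of 6 listed markers of bulb neurons, Tbr1 read between 10.29 and 12.11 and Gad1, the enzyme that makes GABA, between 9.53 and 13.13. Eomes, Th and Dlx2 were above log2 5 at every age too. Tbx21 was under it at E11 (2.40), E12 (4.15) and E14 (4.91) and read 9.28 at P0.

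Of the 10 genes, 8 reached log2 5 on at least 2 arrays and were tested for a linear trend with age, and all 8 rose. Levels of different probe sets are not compared with each other, since probes differ in how they bind. Over all 10865 genes tested with limma, 25.2% rose and 21.9% fell at an adjusted p under 0.05. A gene that passes the filter through its late ages alone has to differ between ages, so the count over tested genes is a description. The median slope was 0.37 log2 units per day over the 6 tested microglia genes and 0.0020 over all genes tested. With no filter, all 10 were tested, 8 rose and 0 fell, against 14.7% of 18194 genes rising. In whole tissue, fewer cells of a type and less RNA per cell cannot be told apart.

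Aif1 and Trem2 stayed under log2 5 on all 9 arrays. Aif1, also called Iba1, an actin-binding protein used widely to stain microglia, read between 3.61 at E12 and 3.93 at E16. Its slope with no filter was 0.017 ± 0.014 log2 units per day (standard error, limma adjusted p = 0.483, n = 9 arrays). Trem2, a lipid-sensing receptor of microglia, read between 2.85 at E18 and 3.79 at E14 on one probe set and between 2.38 and 2.46 on the other. Its slope was -0.034 ± 0.036 (adjusted p = 0.589). A probe set that stays this low does not show whether the RNA was absent.

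**Figure D1:**
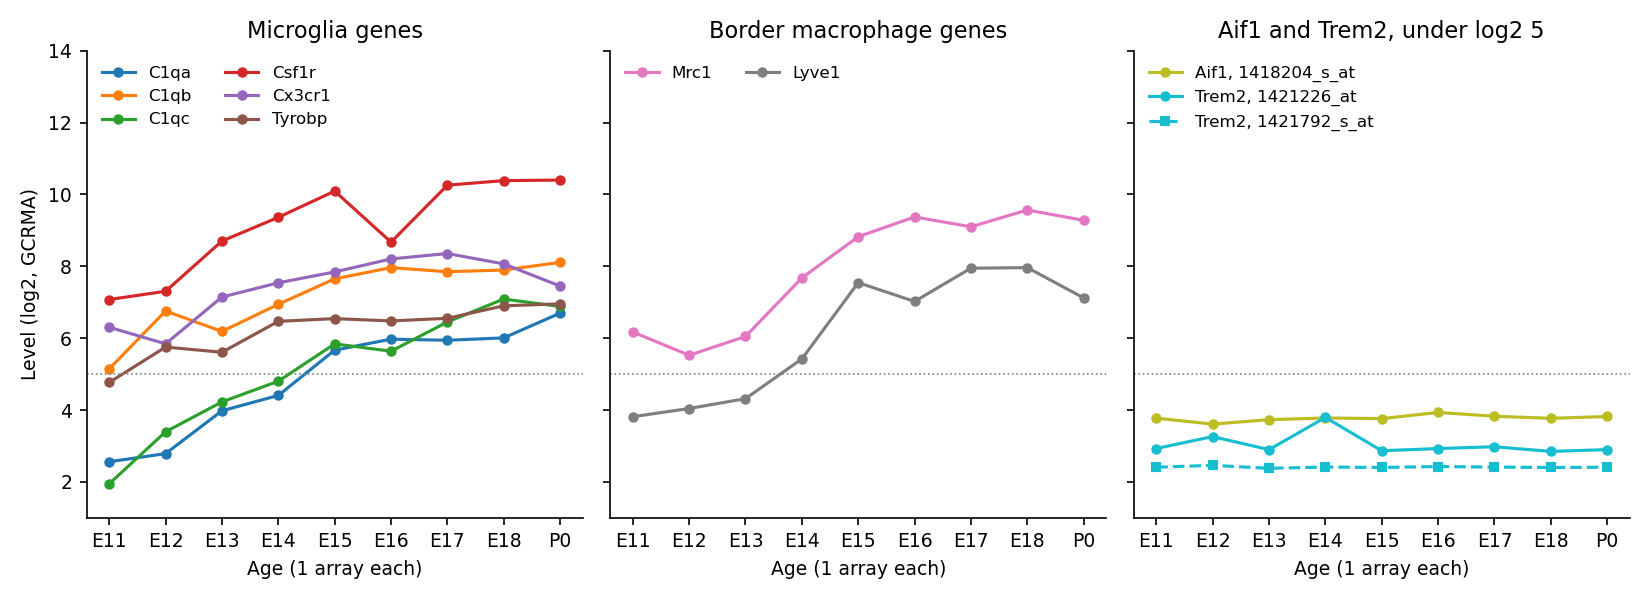
Log2 level (y axis) of each gene's tested probe set at each age (x axis, 1 array each), for 6 microglia genes (left), Mrc1 and Lyve1 (middle), and the Aif1 and Trem2 probe sets (right). The dotted line is log2 5. The 8 tested genes were higher at P0 than at E11, and Aif1 and Trem2 stayed under the line at every age.

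The 3 chains of C1q, the recognition molecule that starts the classical complement pathway, rose together. C1qa read 2.56 at E11, 2.79 at E12, 3.98 at E13, 4.41 at E14, 5.67 at E15, 5.97 at E16, 5.94 at E17, 6.01 at E18 and 6.70 at P0. C1qc read 1.95, 3.39, 4.23, 4.80, 5.84, 5.64, 6.45, 7.09 and 6.88 at the same 9 ages. Both crossed log2 5 at E15 and were above it at every later age, so that all 4 ages before E15 lay below all 5 ages from E15 on. The slope was 0.53 ± 0.058 log2 units per day for C1qa (adjusted p = 8.57e-05) and 0.60 ± 0.060 for C1qc (adjusted p = 4.84e-05). With values under 5 set to 5, P0 was at least 3.24-fold higher than E11 for C1qa and at least 3.69-fold higher for C1qc. On that scale the slopes were 0.21 ± 0.031 for C1qa and 0.29 ± 0.041 for C1qc (adjusted p = 0.000438 and 0.000343).

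C1qb was measured by 3 probe sets, all of which passed the filter. The tested one read 5.15, 6.76, 6.19, 6.94, 7.65, 7.96, 7.85, 7.90 and 8.11 from E11 to P0, with a slope of 0.33 ± 0.055 (adjusted p = 0.000909) and 7.80-fold more at P0 than at E11. Its rise at E12 was not shared by the other probe sets, which read 5.13 and 2.70 at E12 against 5.45 and 2.70 at E11. When each probe set was fitted on its own with no filter, the other slopes were 0.45 ± 0.056 and 0.48 ± 0.051, steeper than that of the tested probe set. The C1qb probe sets correlated with r between 0.88 and 0.95 over the 9 arrays, as a description of probes that share the same RNA.

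Csf1r, the receptor for the growth factors CSF1 and IL-34 on which microglia depend, rose as well. It read 7.08 at E11, 7.31 at E12, 8.70 at E13, 9.36 at E14, 10.09 at E15, 8.67 at E16, 10.26 at E17, 10.39 at E18 and 10.40 at P0. The lowest reading after E13 was that of E16, 1.42 below E15. The slope was 0.42 ± 0.071 (adjusted p = 0.00108), with 10.01-fold more at P0 than at E11, and the call ended when E11 and E12 were left out together (0.26, adjusted p = 0.0523). A further Csf1r probe set that passed the filter read 7.35 at E15, 7.55 at E16 and 7.55 at E17, without a dip at E16, and 3.75 at E11. The last Csf1r probe set stayed under log2 5 on every array but rose too when fitted with no filter (0.26 ± 0.046, adjusted p = 0.00405).

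Cx3cr1, the receptor through which microglia sense the neuronal chemokine fractalkine, was the one tested member with its highest reading before E18. It read 6.30, 5.84, 7.15, 7.54, 7.84, 8.21, 8.36, 8.07 and 7.45 from E11 to P0. The 7 ages from E13 on all lay above E11 and E12, while P0 lay 0.62 below E18. The slope was 0.24 ± 0.066 (adjusted p = 0.0134), with 2.21-fold more at P0 than at E11. The linear call ended without E11 (0.22, adjusted p = 0.0578), without E11 and E12 (0.088, adjusted p = 0.367) and by exact Spearman correlation (rho = 0.68, adjusted p = 0.102). Another Cx3cr1 probe set read between 2.32 and 2.88 on all arrays.

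Tyrobp, the adaptor DAP12 that carries the signal of TREM2 and related receptors, rose by the smallest slope of the 8. It read 4.77, 5.75, 5.61, 6.47, 6.54, 6.48, 6.55, 6.90 and 6.96 from E11 to P0. All 6 ages from E14 on lay above the 3 before, and the readings from E14 to E17 lay between 6.47 and 6.55. The slope was 0.23 ± 0.041 (adjusted p = 0.00125), with at least 3.88-fold more at P0 than at E11.

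**Figure D2:**
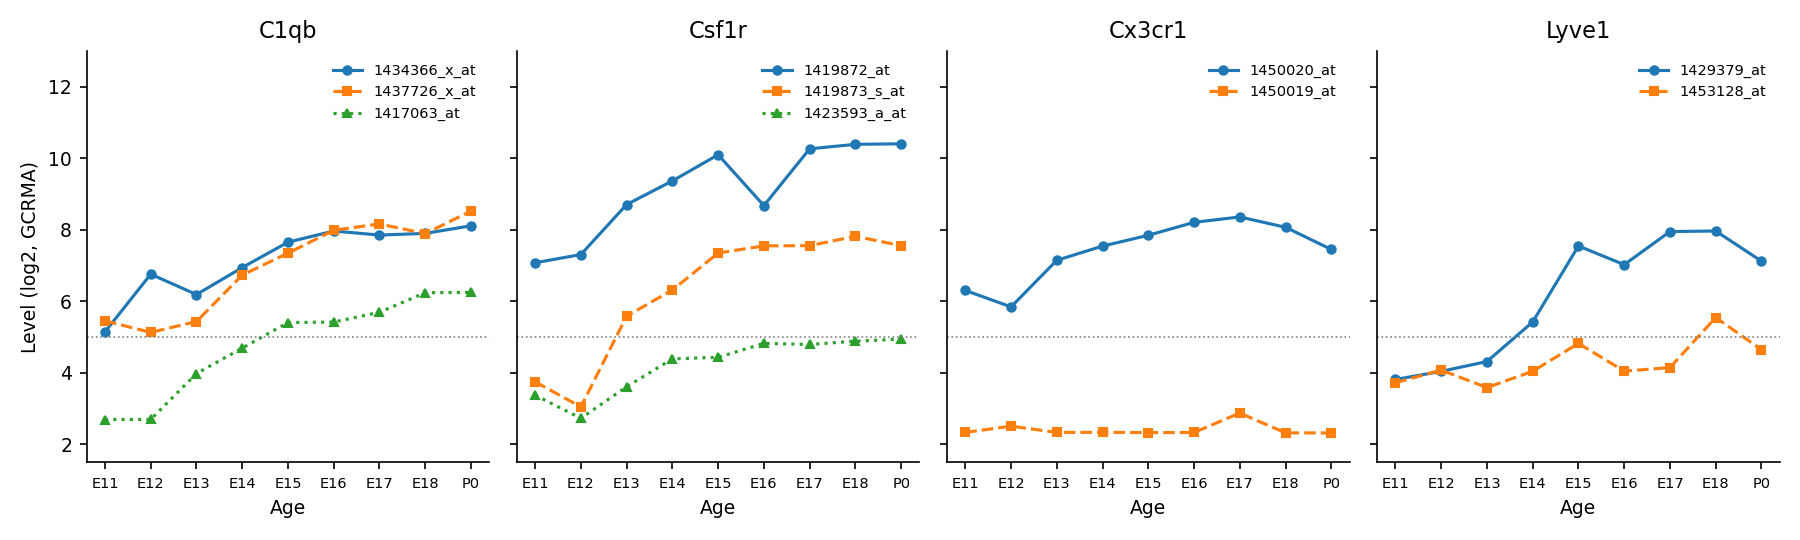
Log2 level (y axis) by age (x axis) of every probe set of C1qb, Csf1r, Cx3cr1 and Lyve1, with the tested probe set as the solid line and log2 5 dotted. The E12 rise of C1qb to 6.76 and the E16 dip of Csf1r to 8.67 appear on the tested probe sets and not on the others.

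Mrc1 and Lyve1 stayed low through E13 and then stepped up. Mrc1, an endocytic receptor for mannose-bearing glycoproteins, read 6.17 at E11, 5.52 at E12, 6.05 at E13, 7.68 at E14, 8.82 at E15, 9.37 at E16, 9.10 at E17, 9.57 at E18 and 9.28 at P0. Lyve1, which binds hyaluronan and also marks lymphatic vessels, read 3.82, 4.04, 4.32, 5.42, 7.55, 7.02, 7.95, 7.96 and 7.12 at these ages. For both genes the 3 ages up to E13 lay below all 6 later ages, and the largest step between neighbouring days was 1.63 from E13 to E14 for Mrc1 and 2.12 from E14 to E15 for Lyve1. The slopes were 0.54 ± 0.080 for Mrc1 (adjusted p = 0.000471) and 0.56 ± 0.091 for Lyve1 (adjusted p = 0.000774). P0 was 8.61-fold higher than E11 for Mrc1 and at least 4.35-fold higher for Lyve1. The other Lyve1 probe set reached log2 5 on 1 array, E18 (5.55), and its slope with no filter was 0.15 ± 0.056 (adjusted p = 0.0848).

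Some microglia genes differed between E13 and E11 where Mrc1 did not rise. On tested probe sets above log2 5 at both ages, E13 was above E11 by 1.63 for Csf1r, 1.04 for C1qb and 0.84 for Cx3cr1, against -0.13 for Mrc1. These steps were 48.9%, 35.2% and 73.4% of the difference between P0 and E11. For Cx3cr1 that difference is less than its largest rise, since it read 8.36 at E17 and 7.45 at P0. Its share is therefore not comparable with the other 2. For C1qa, C1qc and Lyve1 all 3 readings from E11 to E13 lay under log2 5, so an early step was not measured. With values under 5 set to 5, the mean of the 6 tested microglia genes was 0.69 higher at E13 than at E11, and that of Mrc1 and Lyve1 differed by -0.063. On the same scale the differences of E15 from E13 were 1.0 and 2.66, and those of P0 from E15 were 0.48 and 0.016. The early step was not shared by all probe sets or genes of microglia. A C1qb probe set that passed the filter read 5.43 at E13 and 5.45 at E11, and Olfml3, a further microglia gene, read 5.07 at E13 and 6.07 at E11. These values describe single arrays, carry no test, and the timing was noticed in the data.

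**Figure D3:**
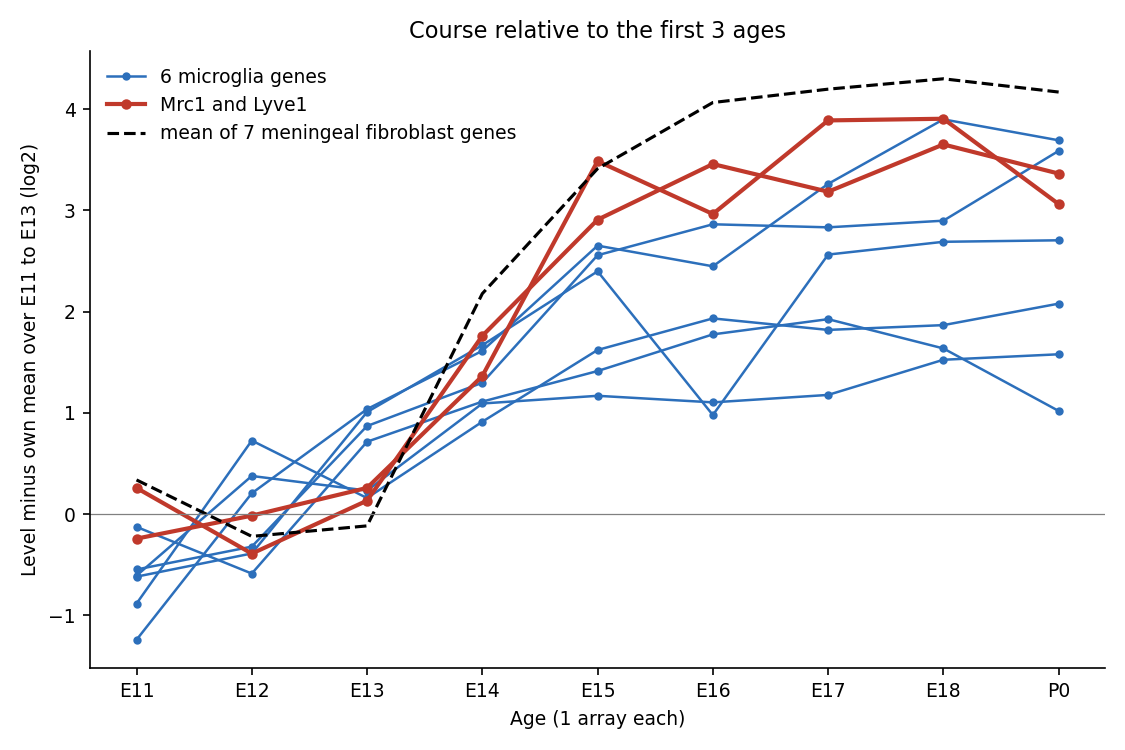
Log2 level at each age minus the gene's own mean over E11 to E13 (y axis) by age (x axis), for the 6 tested microglia genes (thin lines), Mrc1 and Lyve1 (thick lines) and the mean of 7 genes of meningeal fibroblasts (dashed). Mrc1 and the fibroblast mean are lower at E13 than at E11 and climb to E15. Lyve1, C1qa and C1qc lie under log2 5 up to E13, where their steps are not measured.

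The slopes of the microglia genes were set against those of Mrc1 and Lyve1 by fitting the difference within each array. Cx3cr1 rose more slowly than Mrc1 by 0.30 log2 units per day (95% interval without moderated variance -0.46 to -0.14, limma adjusted p = 0.00559), and Tyrobp by 0.30 (-0.53 to -0.077, adjusted p = 0.00657). They also rose more slowly than the tested Lyve1 probe set, by 0.33 each (adjusted p = 0.00766 and 0.00855). The other Lyve1 probe set, which reached log2 5 on 1 array, had a slope of 0.15. That is less than the slopes of Cx3cr1 (0.24) and Tyrobp (0.23). Slopes also differed between probe sets of one gene, from 0.33 to 0.48 for C1qb and from 0.26 to 0.58 for Csf1r. The differences therefore hold for the probe sets tested. C1qa, C1qb, C1qc and Csf1r did not pass against either gene. The intervals of their difference from Mrc1 ran from -0.18 to 0.15 for C1qa, from -0.44 to 0.018 for C1qb, from -0.18 to 0.30 for C1qc and from -0.40 to 0.15 for Csf1r. These 2 of 6 microglia genes stand beside 92.5% of all genes that had a lower and 0.690% that had a higher slope than Mrc1, and 92.4% and 0.479% for Lyve1. The differences share the scatter of the gene subtracted, so the moderated p-values are not to be taken at face value. Without moderation, Cx3cr1 (adjusted p = 0.00360, smaller than with it) and Tyrobp (0.0177, larger) still passed against Mrc1. Against Lyve1, Cx3cr1 (0.00527) and Tyrobp (0.0168) passed, and C1qb also passed (0.0458). Leaving out E12 left 1 gene called against each, and leaving out P0 gave 4 called against Lyve1. With values under 5 set to 5, 5 were called against Mrc1 and 0 against Lyve1.

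Compared in windows of 3 ages, 6 of the 8 tested genes were higher at E14 to E16 than at E11 to E13, against 4.17% of all genes that were higher and 2.31% that were lower. The difference was 2.71 ± 0.39 for Mrc1 (8.62 against 5.92, adjusted p = 0.0245), 2.61 ± 0.50 for Lyve1 (6.66 against 4.06, adjusted p = 0.0325) and 1.12 ± 0.27 for Tyrobp (6.50 against 5.38, adjusted p = 0.0460). C1qa, C1qc and Cx3cr1 passed as well, and Csf1r (1.68, adjusted p = 0.0552) and C1qb (1.49, adjusted p = 0.0553) did not. These calls are near the threshold. They fell to 0 without E11, E12, E15, E16, E17, E18 or P0, where at most 15 genes of the whole table were called. They reached 8 without E13 and 7 without E14. C1qa, C1qc and Lyve1 read under log2 5 from E11 to E13 and passed the filter through later ages. Their differences thus start from the floor, and the count of 6 is a description. With values under 5 set to 5, these genes did not pass with limma (adjusted p = 0.214, 0.203 and 0.0646). On that scale 2 of the 8 passed, Mrc1 and Tyrobp. Between E17 to P0 and E14 to E16, 0 of the 8 passed with limma, against 0.0828% of all genes that were higher, and 1 of the 8 had an unadjusted p under 0.05, C1qc (1.38 ± 0.54). The quadratic term, which asks whether a course bends, was negative in all 8 and passed in 0 of them (with values under 5 set to 5 it was positive for C1qa, 0.019, and C1qc, 0.030), against 5.52% of all genes with a downward bend and 1.33% with an upward one. The lowest adjusted p was that of Cx3cr1 (0.0529). With limma 2 passed when P0 was placed at day 20 (C1qc and Cx3cr1), and 2 without E11 (Cx3cr1 and Mrc1), without E12 (C1qb and Cx3cr1) or without E16 (C1qc and Csf1r).

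Around a straight line in age, some pairs of genes moved together within and across the 2 classes, and others did not. After a straight line in age was taken from each gene, the residuals of Mrc1 and Lyve1 correlated with r = 0.80 over the 9 arrays. Residuals of C1qb and Tyrobp gave r = 0.77, those of C1qc and Tyrobp 0.74, those of C1qa and Cx3cr1 0.75, and those of C1qb and Csf1r 0.042. Across the classes, r was 0.72 for Cx3cr1 and Mrc1, 0.69 for Cx3cr1 and Lyve1, and 0.68 for C1qa and Mrc1. The quadratic terms of all 8 genes were negative, so a shared bend stays in these residuals. Around a fit with age squared, r was 0.74 for Mrc1 and Lyve1, 0.64 for Cx3cr1 and Mrc1, and 0.55 for C1qa and Mrc1. It was 0.57 for C1qb and Tyrobp, 0.40 for C1qc and Tyrobp, 0.39 for C1qa and Cx3cr1, and 0.44 for Cx3cr1 and Lyve1. For Cx3cr1 it was -0.76 with Tyrobp and -0.73 with C1qb. These are descriptions, and all points share the same 9 RNA samples.

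The mean of genes of meningeal fibroblasts moved closely with Mrc1 and Lyve1, and that of blood endothelium less closely. Of 7 fibroblast genes 6 rose and 0 fell, against 25.2% of all genes that rose and 21.9% that fell. The steepest were Ogn (1.11 ± 0.11), the GABA transporter gene Slc6a13 (1.08 ± 0.12), the decorin gene Dcn (0.89 ± 0.13) and the collagen gene Col1a1 (0.57 ± 0.095). Ogn, Slc6a13 and Col1a1 were under log2 5 up to E13 and entered the count through later ages. The mean of the 7 fibroblast genes read 6.08, 5.53, 5.63, 7.92, 9.16, 9.81, 9.94, 10.05 and 9.92 from E11 to P0. Its correlation with Mrc1 was 0.995 for the levels and 0.97 around the line, and with Lyve1 0.97 and 0.82. For the mean of 3 genes of blood endothelium, these were 0.87 and 0.79 with Mrc1, and 0.82 and 0.62 with Lyve1. For the 6 microglia genes, the correlation with the fibroblast mean lay between 0.83 (Csf1r) and 0.94 (C1qa) for the levels. Around the line it lay between 0.13 (Csf1r) and 0.65 (Cx3cr1). With the mean of 6 genes of bulb neurons, Mrc1 gave 0.93 for the levels and 0.51 around the line. Lyve1 gave 0.92 and 0.47. For the levels, these lie above the values with blood endothelium, and around the line they lie below. Any bend shared with these means stays in the values around the line. The log2 of the summed level of the 7 fibroblast genes ran between 9.94 at E13 and 13.94 at E18. Their part in the rise of Mrc1 and Lyve1 was not tested.

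Lymphatic vessels also carry Lyve1, and 3 of the 4 genes listed for lymphatic and sinusoidal endothelium stayed under log2 5, which does not show whether their RNA was absent. Prox1, the factor that defines lymphatic endothelium, read between 3.08 and 4.21 and was highest at E11, and the receptor gene Flt4 read between 3.56 and 4.85. Stab2, a receptor of sinusoidal endothelium, read at most 2.16. The fourth gene of this list, Pdpn, which is shared with other cells, fell with a slope of -0.14 ± 0.044 (adjusted p = 0.0237). The part of these vessels in the rise of Lyve1 was not tested. Of 3 tested genes of blood endothelium, Cldn5, a tight junction protein of the blood-brain barrier, rose (0.35 ± 0.048), and Kdr (0.040 ± 0.051) and Tek (0.067 ± 0.071) did not pass.

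Further genes of border macrophages rose, 6 of the 6 tested and 0 fell, on a list of 12. Over all genes tested, 25.2% rose and 21.9% fell. Under 19 of 22 alternatives, 4 or 5 genes of the list rose. F13a1, the A chain of coagulation factor XIII, had the steepest slope (0.76 ± 0.10, adjusted p = 0.000248), with levels of 4.20 at E13, 6.27 at E14, 8.42 at E15 and 8.94 at P0. Cd163, the scavenger receptor for haemoglobin, read between 2.20 and 2.41 from E11 to E14, 4.56 at E15, 6.43 at E17 and 5.91 at P0 (0.61 ± 0.085). Cd163 was under log2 5 up to E16 and F13a1 up to E13, so both entered the count through later ages. The transcription factor gene Maf rose by 0.40 ± 0.054 and the endocytic adaptor gene Dab2 by 0.29 ± 0.070. Pf4 (adjusted p = 0.0317) and Stab1 (adjusted p = 0.0486) passed near the threshold and read lowest at E13 (6.13 and 5.88). Ms4a7, Folr2, Siglec1, Clec10a and Cd209f stayed under log2 5 on all arrays, and Cbr2 reached it at P0 only (5.38).

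Further genes of microglia gave fewer readings above log2 5. On a list of 12, 11 were on the array with a symbol of their own and 8 stayed under 5 at every age, among them P2ry12 (2.41 to 4.82) and Tmem119 (2.14 to 4.05), a purine receptor and a surface protein of mature microglia. Of the 3 tested, Fcrls rose by 0.38 ± 0.050 and read 4.85 at E11 and 7.94 at P0, and Olfml3 rose by 0.30 ± 0.066. Sall1, a factor of microglial identity that neural progenitors also express, had a slope of -0.036 ± 0.042 (adjusted p = 0.510). With no filter, 4 genes of this list rose.

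Genes common to macrophages rose in 6 of 7 tested cases, with 0 falling, against the 25.2% of all genes that rose. The Fc receptor gene Fcgr3 had the steepest slope (0.47 ± 0.057) and read 3.88 at E11 and 7.29 at P0. Lyz2, which encodes lysozyme, rose by 0.43 ± 0.079, the gene of the lipopolysaccharide co-receptor Ly86 by 0.43 ± 0.057 and the lysosomal protease gene Ctss by 0.37 ± 0.046. Adgre1, the F4/80 antigen, and Laptm5 rose too, and Fcer1g (0.097 ± 0.038, adjusted p = 0.0556) did not pass. Fcgr3 was under log2 5 up to E13, Lyz2 and Ly86 up to E14, and Adgre1 up to E15. They entered the count through later ages, so the count is a description. Defining genes of the lineage were among the 9 of 16 that stayed under log2 5 at every age. Spi1, which encodes PU.1, read between 2.63 and 2.73, Itgam, the CD11b integrin, between 2.24 and 2.35, and Ptprc, the CD45 antigen, between 2.60 at E11 and 4.57 at E17.

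**Figure D4:**
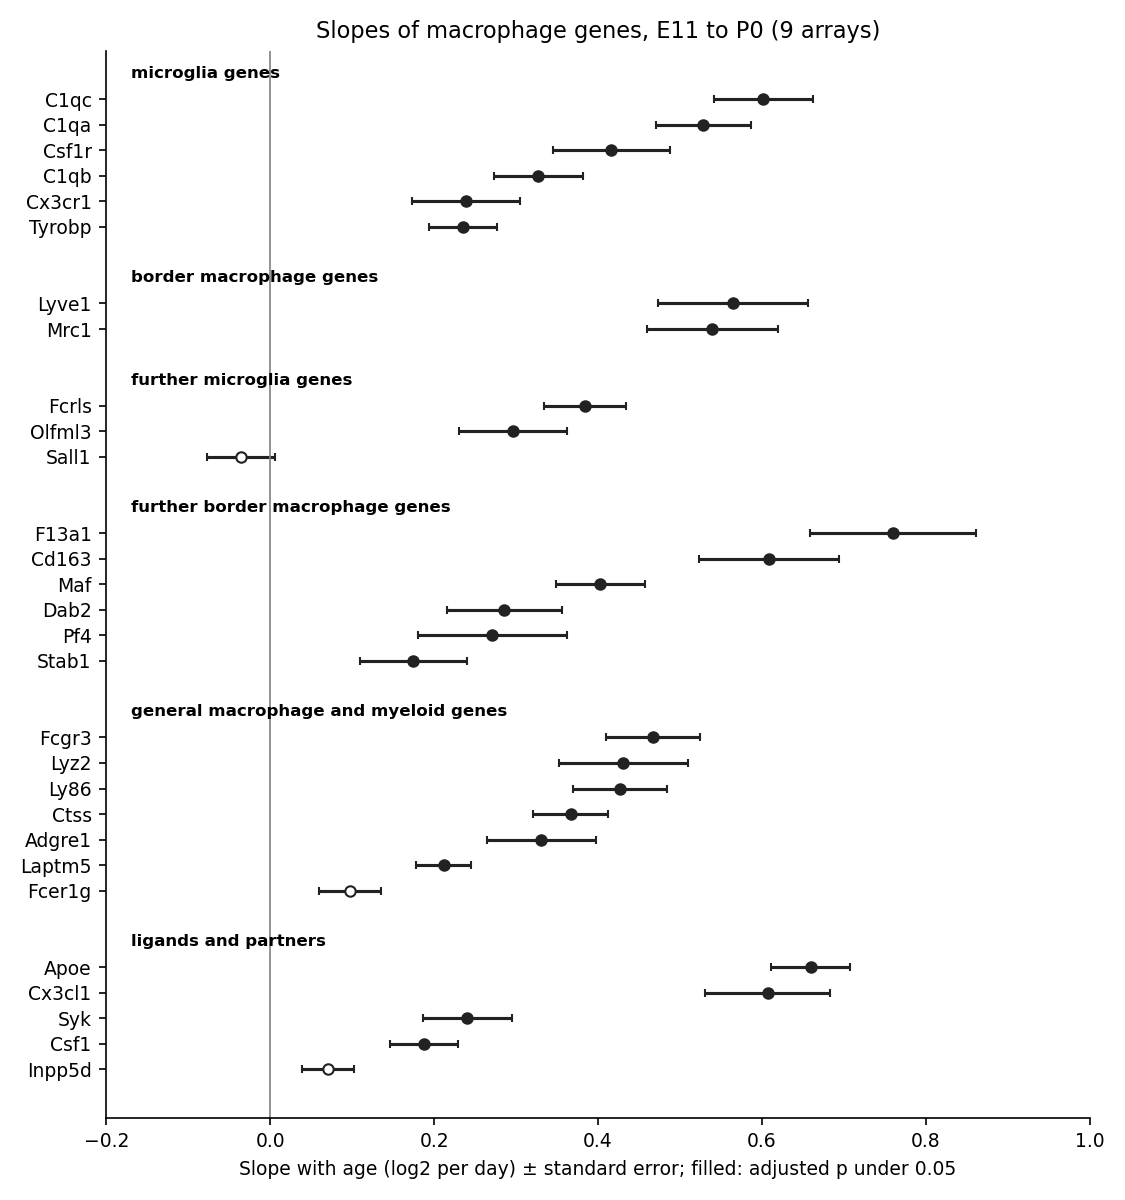
Slope with age in log2 units per day (x axis, point) with its standard error (bar) over 9 arrays for every tested gene of 6 lists (y axis). Filled points passed at an adjusted p under 0.05 and open points did not. Every point except Sall1 lies right of 0, and Sall1, Fcer1g and Inpp5d are open.

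Ligands and partners of the receptors rose on the same arrays, 4 of 5 tested, against 25.2% of all genes that rose. Cx3cl1, the neuronal ligand of Cx3cr1, rose by 0.61 ± 0.076 (adjusted p = 0.000179). It had 2.91 at E11, 6.23 by E15 and 7.34 at P0, the age at which Cx3cr1 lay below its own E18 reading. Cx3cl1 was under log2 5 up to E14, so its slope starts from the floor and it entered the count through later ages. Csf1, a ligand of Csf1r, rose by 0.19 ± 0.041 (adjusted p = 0.00413), and its level was 5.15 at E11 and 6.40 at P0. Il34, the other ligand, read at most 2.72. Apoe, a lipid carrier that TREM2 binds and that astrocytes also make, rose by 0.66 ± 0.048, and Syk, the kinase downstream of Tyrobp, by 0.24 ± 0.054. When probe sets with names ending in _s_at, _x_at or _a_at were left out, 2 genes of this list rose. The probe sets tested for Apoe and Csf1 end in _a_at and were among those left out.

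Complement genes beyond C1q were mostly low or were regulators. Of 3 tested, 2 rose, against 25.2% of all genes that rose. They were Cd55, which limits complement on cell surfaces (0.38 ± 0.051), and Serping1, the C1 inhibitor (0.15 ± 0.039). Cd55 was under log2 5 up to E14 and entered the count through later ages. Cd59a did not pass (slope 0.0081, adjusted p = 0.933). The C3a receptor gene C3ar1, a microglial gene, read at most 3.42, and C1ra, the gene of a protease that pairs with C1q, at most 2.23. Among genes of the amoeboid and phagocytic state, 2 of 4 tested rose and 1 fell, against 25.2% and 21.9% of all genes. Igf1, a growth factor made by microglia and by other cells, rose by 0.85 ± 0.14 (adjusted p = 0.000851). Its level was 5.89 at E11, 7.07 at E12, 10.40 at E13 and 12.27 at E15. Cd9 rose by 0.30 ± 0.050, Lpl fell with a slope of -0.23 ± 0.047 and Axl had a slope of -0.0035 ± 0.035. Gpnmb, Lgals3, Itgax, Clec7a and Cst7 stayed under log2 5 at every age.

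Genes of other leukocytes were read on some arrays and not on others. Ccr2, the receptor of inflammatory monocytes, read between 3.10 and 3.26. S100a8 and S100a9, which granulocytes make, read 5.84 and 4.46 at E15, and S100a8 read 4.54 at E17 and 4.75 at P0. Ngp, a neutrophil granule gene, read 4.41 at E15 and at most 2.10 elsewhere. Cpa3 and Cma1, proteases of mast cells, read 7.48 and 6.34 at E18 and at most 4.43 and 3.73 on the other arrays, both of these at E17. At E18 the residual from the line was 0.14 for Lyve1 and -0.0021 for Mrc1. At E15 it was 1.41 for Lyve1, 0.87 for Mrc1, and between 0.32 and 0.95 for the 6 microglia genes. A downward bend alone makes a residual from a line positive in mid-course. Around a fit with age squared, E18 gave 0.32 for Lyve1 and 0.12 for Mrc1. On that fit E15 gave 0.91 for Lyve1, 0.52 for Mrc1, and between -0.051 (Cx3cr1) and 0.61 (Csf1r) for the 6 microglia genes. Whether these cells bear on the readings at E15 was not tested.

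**Figure D5:**
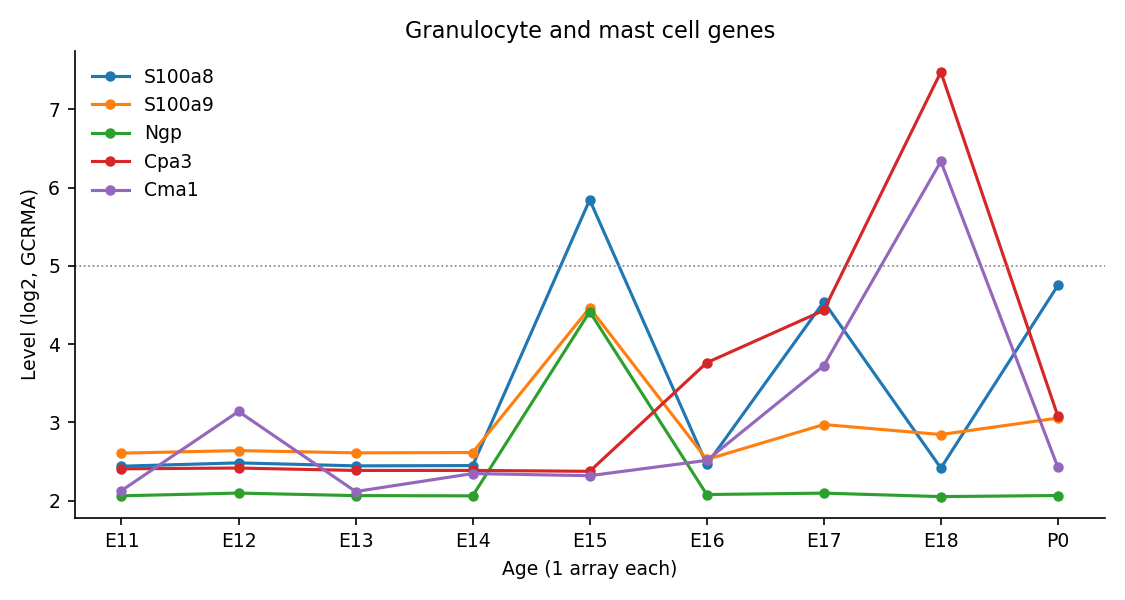
Log2 level (y axis) by age (x axis, 1 array each) of S100a8, S100a9 and Ngp of granulocytes and Cpa3 and Cma1 of mast cells, with log2 5 dotted. The granulocyte genes are highest at E15 and the mast cell genes at E18, where Cpa3 read 7.48.

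Outside these lists, the genes closest to the mean of the 6 tested microglia genes by Pearson correlation over the 9 arrays were Plppr5 (r = 0.994), Hpca, Rgs7bp, Gnai1 and Ppm1h (r = 0.992). Hpca encodes a neuronal calcium sensor and Gnai1 an inhibitory G protein subunit. Of single microglia genes, C1qa had an r of 0.993 with the mean of 6 genes of bulb neurons. The genes closest to Mrc1 were Cthrc1 (r = 0.995), Enpep (0.991) and Cav1 (0.990). Cthrc1 encodes a secreted protein of mesenchyme and Cav1 the main protein of caveolae, which endothelium carries in quantity. For Lyve1 they were Rassf8 (0.985), Dstyk (0.982) and Rasgef1a (0.981). Many genes rise over this course, so a high correlation over 9 ages is common.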

How the data were processed

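Messenger RNA was measured on 9 Affymetrix arrays, 1 animal per age. The authors deposited log2 levels per probe set made with GCRMA, per the submitters' processing notes. Its version is not given in the sources used here. The values themselves showed a log2 scale. GCRMA corrects background by probe sequence, so low readings sit on a floor and folds from it are bounds. Of 45101 probe sets, 34958 name 1 gene. Probe sets at log2 5 or more on at least 2 arrays were kept, and the one with the highest mean stood for its gene, leaving 10865 genes. Each was fitted on age (P0 as day 19) with limma 3.58.1 in R 4.3.3 (moderated variance with trend, two-sided, Benjamini-Hochberg over all genes, threshold 0.05), and likewise with age squared, in 3 windows of ages, and as a difference from Mrc1 or Lyve1. Standard errors are moderated. Arrays of a window are neighbouring ages, not replicates. The fit was tested on simulated data. Sex was read from Xist. The number of arrays limits precision. The members and lists were chosen with earlier results of these data known. The text names all 10 members, up to 4 genes of each list with the largest slopes and genes needed beside them, and the 5 genes nearest the microglia mean and 3 nearest Mrc1 and Lyve1. Other list genes, most of them below the filter, were named after their values were seen. Alternatives were filter, floor, probe set choice, scaling, age of P0, sex, variance model, rank test and arrays left out.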

Additional observations from a re-analysis of the deposited data

How the results depend on the processing

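All 8 tested genes kept a positive slope under every alternative run. Between 6 and 8 of them rose, 0 fell, and 0 were higher at E17 to P0 than at E14 to E16. Without E11 and E12 1525 genes of the table rose, against 2743. The count with a bend, 0, became 1 with a filter at log2 6, 2 with P0 at day 20, 1 without a trend in the variance, and 1 without E11 and E12, and ran between 0 and 2 with 1 array left out. The count higher at E14 to E16, 6, became 0 with no filter, 2 with values under 5 set to 5, 0 with sex in the fit, 3 without a trend in the variance and 0 without E11 and E12, and ran between 0 and 8 with 1 array left out. Over all genes, the 453 called there became 5 with no filter, 5 with sex, 226 without the variance trend and between 2 and 1851 with 1 array left out, and the 745 with a bend became 338 with no filter, 80 with sex, 118 without E11 and E12 and between 254 and 740 with 1 array left out. The microglia genes with another slope than Mrc1, 2, became 4 with no filter, 5 with the floor and 1 without E11 and E12, and ran between 1 and 3 with 1 array left out. Against Lyve1, 2 became 4, 0 and 1, and ran between 1 and 4. The causes were not tested. Median centring or quantile normalization moved an array's median by at most 0.0877, and with median centring 2389 genes rose and 2989 fell. With values under 5 set to 5, the slope of C1qa was 0.21 against 0.53 and that of C1qc 0.29 against 0.60, and the bends of both turned positive. Fits per probe set and without moderation, and early steps with that floor, were added after the data were seen. No paired analysis was possible because each age holds 1 array. Readings near the array's floor limit what low probe sets can show.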
